A study of Mus musculus with 8 samples.

Results

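Genes of T cells, natural killer (NK) cells and type 2 innate lymphoid cells (ILC2) were followed in the epididymal fat pad, a visceral white depot next to the testis, in mice fed a high-fat diet. The set holds 39 genes chosen by symbol, and all 39 had a row among the 31854 rows of the deposited count table. Klrb1c stood on 2 rows, and the row with the higher total was used. The mice were wild type (WT, 4 libraries, replicates 1, 2, 3 and 5) or carried a knock-in of PPAR-gamma with alanine in place of serine at residue 273 (S273A, 4 libraries, replicates 2, 3, 4 and 6). Both groups ate the same diet, and gene counts do not show which allele a library carried. The labels give neither age, strain, zygosity nor whether each library is a separate animal, and any p-value here reflects only how these libraries vary, which may be technical. RNA came from whole tissue, so fewer cells of a type and less RNA per cell cannot be told apart.

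T cells recognise antigen through a receptor that signals through the CD3 chains and the kinases Lck and Zap70. CD4 T cells help or regulate, and CD8 T cells and NK cells kill target cells with granzymes and perforin. Visceral fat of lean male mice is known for a population of regulatory T cells that express Foxp3, the interleukin-33 receptor ST2 (encoded by Il1rl1) and PPAR-gamma, and for ILC2, which also respond to interleukin-33. In obesity, cytotoxic and interferon-producing lymphocytes are known to gather in this depot. The 39 genes were read in 8 classes by role, of which the cytotoxic (13 genes), regulatory (3) and type 2 (3) classes were set side by side.

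The 4 promoters shown next belong to the pair of patterns described further on. Cd3d and Cd3e followed the T cell pattern over the libraries, and Gzma and Ncr1 were highest in S273A replicate 2. The lead of Gzma there was small, with 61 counts against 55 in WT replicate 2. Each promoter shown is the 250 bases before the RefSeq start site (GRCm38.p6), written 5′ to 3′ in the direction of the gene. Capitals mark matches on either strand to TGTGGT (RUNX factors), AGGAAG (ETS factors) or GGTGTG (T-box factors such as Tbx21 and Eomes). The RUNX and T-box letters can overlap each other. Cd3d is from chr9:44981536-44981785, plus strand, Cd3e from chr9:45009612-45009861, minus strand, Gzma from chr13:113100982-113101231, minus strand, and Ncr1, the first of 2 listed starts, from chr7:4337465-4337714, plus strand.
Cd3d: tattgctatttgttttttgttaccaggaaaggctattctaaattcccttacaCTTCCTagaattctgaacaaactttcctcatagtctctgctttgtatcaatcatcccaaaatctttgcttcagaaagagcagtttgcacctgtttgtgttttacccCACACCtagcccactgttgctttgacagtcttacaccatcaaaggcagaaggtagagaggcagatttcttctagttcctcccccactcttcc
Cd3e: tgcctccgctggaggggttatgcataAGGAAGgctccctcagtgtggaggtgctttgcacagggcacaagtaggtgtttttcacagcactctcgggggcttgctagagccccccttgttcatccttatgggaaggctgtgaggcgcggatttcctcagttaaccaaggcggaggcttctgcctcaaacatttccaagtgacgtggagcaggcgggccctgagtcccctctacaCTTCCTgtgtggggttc
Gzma: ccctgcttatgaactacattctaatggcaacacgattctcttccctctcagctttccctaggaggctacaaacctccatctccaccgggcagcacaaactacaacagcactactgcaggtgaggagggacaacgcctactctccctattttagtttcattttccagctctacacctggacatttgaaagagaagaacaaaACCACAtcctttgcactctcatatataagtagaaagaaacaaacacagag
Ncr1: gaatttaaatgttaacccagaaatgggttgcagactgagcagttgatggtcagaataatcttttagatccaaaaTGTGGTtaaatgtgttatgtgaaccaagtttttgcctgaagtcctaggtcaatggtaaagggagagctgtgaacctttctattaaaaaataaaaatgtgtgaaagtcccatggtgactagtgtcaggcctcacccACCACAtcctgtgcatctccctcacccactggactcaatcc
The Cd3d window held 1 ETS and 1 T-box match and the Cd3e window 2 ETS matches, with no RUNX match in either. The Gzma window held 1 RUNX match and the Ncr1 window 2, with no ETS or T-box match in either. Promoter windows were listed for 29 of the 39 genes, 36 windows in all. RUNX letters were in 11 of those 36, ETS letters in 18 and T-box letters in 7. Over all 32851 windows of this length the shares were 14.05%, 29.5% and 16.3%. A match describes these letters and is not a binding site. The 4 windows are examples, and matches were not counted by pattern, so no motif difference between the patterns is read from them.

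Total counts ran from 14880239 to 18194889 per library. Levels are counts per 1000000 (CPM), scaled for library composition by TMM, and values per library are given in the order of the replicate numbers above. Of the 39 genes, 38 had enough counts to be tested; Areg did not. The threshold for a call was 0.05 on the p-value adjusted over all 15667 tested rows. No tested member was called by edgeR's quasi-likelihood test (0 of 38, where 0% of all rows was called), and 0 of 38 had an unadjusted p under 0.05, against 1.46% of all rows. DESeq2 and limma-voom also called 0 members (background 0.00441% and 0% of rows), with 0 at an unadjusted p under 0.05 in each (background 0.952% and 1.42%). Over all rows edgeR called 0 with 229 at an unadjusted p under 0.05, DESeq2 1 with 216, and limma-voom 0 with 223. For no member did the WT and S273A libraries separate without overlap (0 of 39, against 1.19% of all tested rows).

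Estimates were below 0, that is lower in S273A, for 33 of the 38 tested members, where 49.3% of all rows were. The median log2 fold change was -0.17, beside 0.0015 over all rows. The 13 cytotoxic genes had a median of -0.16 with 12 estimates below 0. The 3 regulatory genes had a median of -0.15 with 2 below 0, and the 2 tested type 2 genes a median of -0.17 with both below 0. The 3 medians lay close together, but the regulatory one rests on 3 rows, among them the row listed as Foxp3. The type 2 one is the midpoint of Gata3 (-0.06) and Il1rl1 (-0.29). Further cytotoxic and NK, regulatory and type 2 genes, listed beside the members, had medians of -0.15, -0.04 and -0.01. Each of these lists held genes far above Cd3e (mean 10.7 CPM in WT), such as Zeb2 at 747, Entpd1 at 152 and Rora at 135 CPM in WT. These genes were named after their values were seen, and which cells their reads came from was not tested. A likeness of the 3 classes is therefore not read from these values. The medians over members also turned on single libraries. Leaving out WT replicate 1, 2, 3 or 5 moved the median over all 38 to -0.05, -0.06, -0.16 or -0.36. Leaving out S273A replicate 2, 3, 4 or 6 moved it to -0.20, -0.37, -0.04 or -0.09. The cytotoxic median lay between -0.40 without S273A replicate 3 and 0.02 without WT replicate 2, the regulatory one between -0.17 without S273A replicate 2 and -0.03 without S273A replicate 6, and the type 2 one between -0.28 without WT replicate 3 and -0.07 without WT replicate 1.

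**Figure D1:**
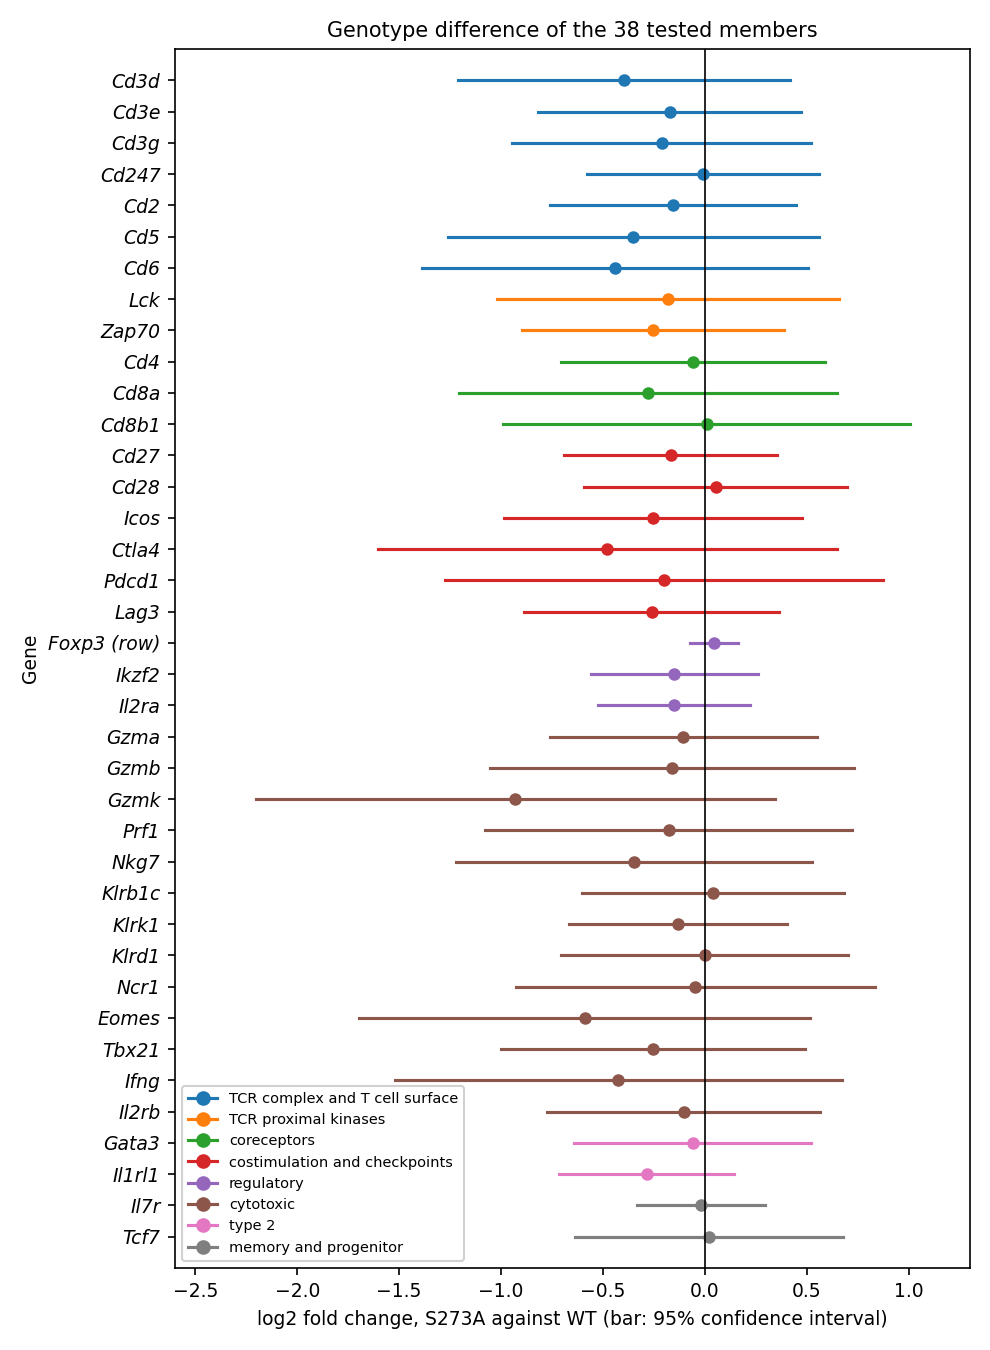
Log2 fold change of S273A against WT (x axis) for each of the 38 tested genes (y axis), with its 95% confidence interval as a bar and the class as a colour. All 38 intervals span 0, and Gzmk has the estimate furthest from 0 (-0.93).

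The members varied far more between libraries of 1 genotype than the median row did. The standard deviation of log2 CPM within a genotype had a median of 0.54 over the tested members and of 0.15 over all tested rows. The highest WT library was over 2-fold above the lowest in 28 of 39 members, and the same held within S273A in 24. The half-width of the 95% confidence interval of the log2 fold change was 0.69 for the median member, against 0.24 for the median row. The half-widths of single members ran from 0.12 to 1.27. For a member, a difference smaller than its own half-width was not detectable at this spread. A call also had to pass the adjustment over all tested rows, so larger differences could be missed too.

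Much of the spread followed 1 order of libraries, called the T cell order here. The 3 highest libraries were WT replicates 1 and 2 and S273A replicate 3 in 22 of 39 members, where this held for 7.5% of all tested rows. The lowest library was WT replicate 5 or S273A replicate 4 in 32 of 39, against 24.6% of all rows. Both patterns were chosen after the values were seen. Neither pattern separates the genotypes, since each names libraries of both.

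**Figure D2:**
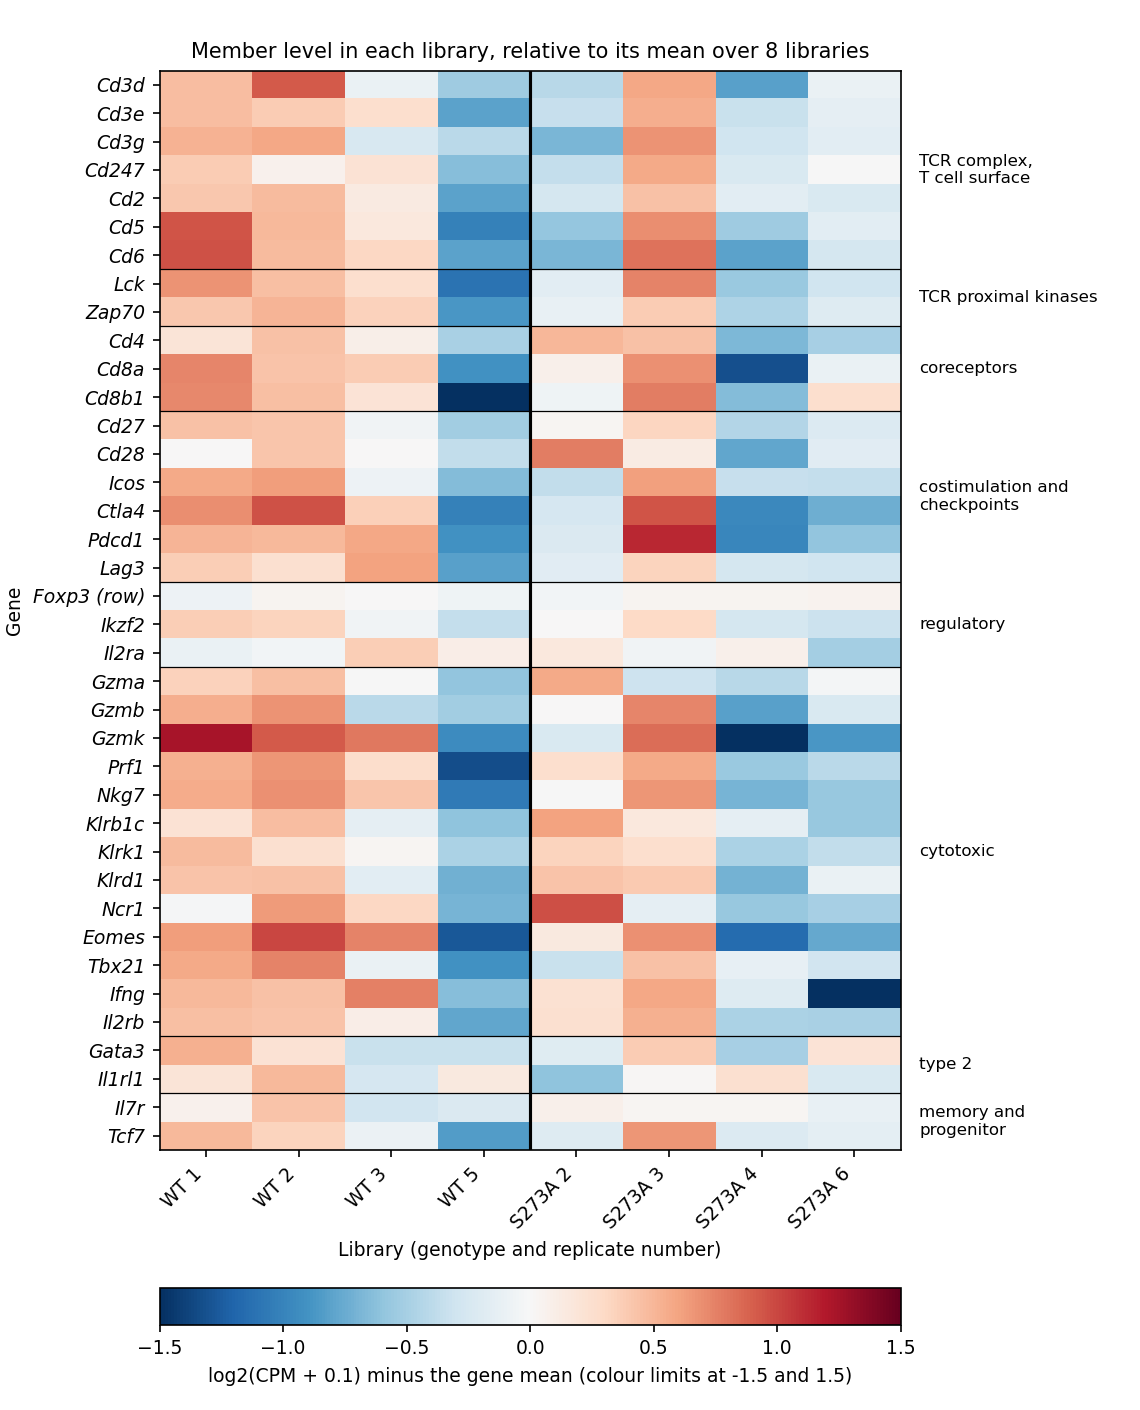
Level of each tested gene (rows, by class) in each of the 8 libraries (columns), as log2(CPM + 0.1) minus the gene's mean; red is above and blue below that mean. WT replicates 1 and 2 and S273A replicate 3 are red in most rows, WT replicate 5 and S273A replicate 4 are blue, and the row listed as Foxp3 is nearly white throughout.

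Cd3e, a chain of the T cell receptor complex (chr9:44998740-45009627, minus strand, GRCm38), was at 13.3, 12.5, 11.5 and 5.46 CPM in WT libraries and 7.53, 14.1, 7.58 and 8.74 CPM in S273A libraries. The high values came from WT replicates 1, 2 and 3 and S273A replicate 3, and the genotypes overlapped over nearly their whole range. The estimate on the log2 scale was -0.17 (SE 0.29, 95% confidence interval -0.82 to 0.47; edgeR's p before adjustment 0.564, adjusted p 0.9999). Its neighbours on chromosome 9, Cd3d (chr9:44981786-44987339) and Cd3g (chr9:44969572-44980431), encode the partner chains. Cd3d was at 6.41, 8.87, 4.31 and 3.17 CPM in WT libraries and 3.46, 6.97, 2.58 and 4.31 CPM in S273A libraries. Cd3g was at 6.53, 6.82, 3.83 and 3.41 CPM in WT libraries and 2.79, 7.31, 3.68 and 4.06 CPM in S273A libraries. Both had WT replicates 1 and 2 and S273A replicate 3 on top, as Cd3e did, with log2 fold changes of -0.40 (SE 0.36) and -0.21 (SE 0.33). Cd247, the signalling zeta chain, was at 7.63 ± 2.11 CPM for WT against 7.57 ± 2.36 CPM for S273A (SD, n = 4 each), and its log2 fold change was -0.01 (SE 0.25).

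Cd2, an adhesion receptor, and Cd5 and Cd6, scavenger-type receptors that tune T cell receptor signals, had log2 fold changes of -0.16, -0.35 and -0.44. Cd6 was at 15.1, 10.8, 9.65 and 4.40 CPM in WT libraries and 4.79, 13.7, 4.42 and 6.46 CPM in S273A libraries, a 3.44-fold range within WT and 3.10-fold within S273A. In all, 7 of 7 genes of the receptor complex and T cell surface had estimates below 0, with a median of -0.21 and none called. Leaving out WT replicate 1, 2, 3 or 5 gave medians of -0.05, -0.09, -0.32 and -0.39. Leaving out S273A replicate 2, 3, 4 or 6 gave -0.08, -0.55, -0.13 and -0.17. Lck, the kinase that first phosphorylates the CD3 chains, was at 27.4, 23.4, 20.4 and 7.93 CPM in WT libraries and 15.4, 28.8, 11.7 and 13.9 CPM in S273A libraries. Zap70, the kinase recruited to them, was at 11.2, 12.1, 10.8 and 4.58 CPM in WT libraries and 7.80, 11.1, 6.09 and 7.38 CPM in S273A libraries. WT replicate 5 was lowest for both kinases, and their log2 fold changes were -0.18 (SE 0.37) and -0.25 (SE 0.29).

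The coreceptors of the 2 T cell lineages did not share 1 order. Cd8a and Cd8b1, the chains of the CD8 coreceptor, had the T cell order: Cd8a was at 13.6, 11, 10.7 and 4.29 CPM in WT libraries and 8.58, 13.2, 3.22 and 7.63 CPM in S273A libraries, and Cd8b1 at 7.83, 6.48, 5.47 and 1.41 CPM in WT libraries and 4.52, 8.15, 2.99 and 5.66 CPM in S273A libraries. Cd8b1 spanned 5.56-fold within WT. Cd4 was at 25.8, 30.7, 24.0 and 16.1 CPM in WT libraries and 32, 30.8, 14.1 and 15.9 CPM in S273A libraries, so its highest library was S273A replicate 2, where Cd3e was among the low ones. Which cells of the whole tissue the Cd4 reads came from was not tested, so the ratio below compares transcripts and not T cell lineages. The log2 fold changes were -0.28 (SE 0.41) for Cd8a, 0.01 (SE 0.44) for Cd8b1 and -0.06 (SE 0.29) for Cd4. The ratio of Cd8a to Cd4 counts within a library was 0.530, 0.360, 0.445 and 0.267 in WT and 0.269, 0.430, 0.230 and 0.480 in S273A. The difference of the mean log2 ratios was -0.21, with an exact two-sided permutation p of 0.571 (0.857 after Benjamini-Hochberg adjustment over 3 ratios; 4 against 4 can give no less than 0.0286).

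**Figure D3:**
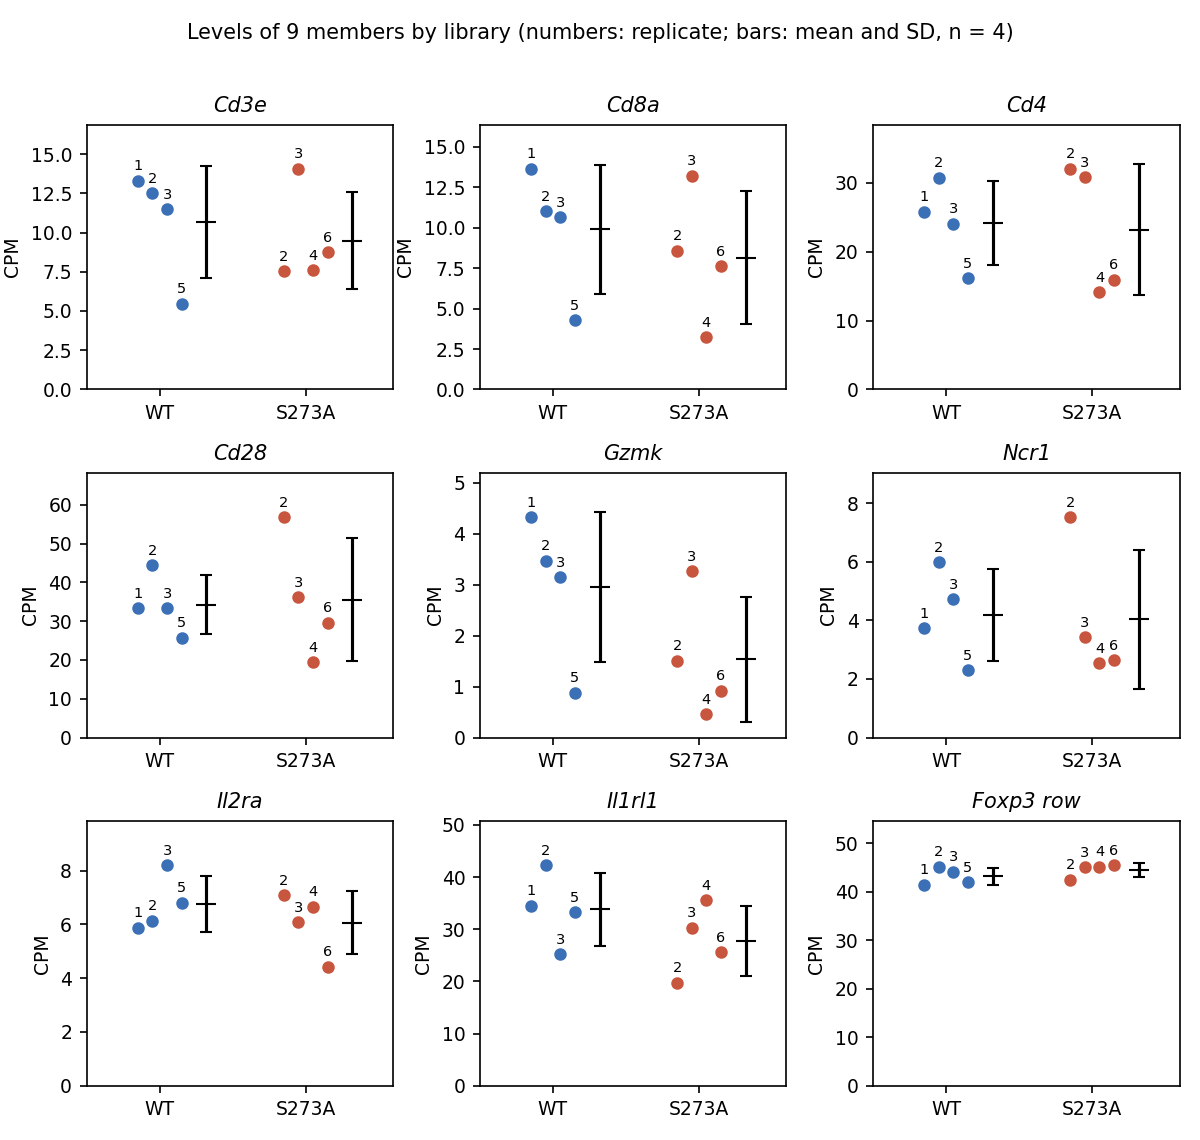
Normalised CPM (y axes, from 0) of 9 members in the 4 WT (blue) and 4 S273A (red) libraries, each point marked by its replicate number, with black bars for the mean and SD. Cd3e, Cd8a and Gzmk are high in WT replicates 1 and 2 and S273A replicate 3, Cd28 and Ncr1 are highest in S273A replicate 2, and the row listed as Foxp3 stays between 41.4 and 45.5 CPM.

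Among the costimulatory and checkpoint receptors, Cd28, the main costimulatory receptor of naive T cells, stood apart. It was at 33.4, 44.4, 33.3 and 25.8 CPM in WT libraries and 56.9, 36.1, 19.4 and 29.6 CPM in S273A libraries. S273A replicate 2 had the highest value of all 8 libraries and S273A replicate 4 the lowest, so the S273A libraries alone spanned 2.93-fold. Icos and Ctla4, its relatives, lie next to it on chromosome 1 (Cd28 chr1:60716800-60773359, Ctla4 chr1:60887000-60915832, Icos chr1:60977927-61000320) and had another order. Icos, an inducible costimulator, was at 7.12, 7.39, 4.52 and 2.99 CPM in WT libraries and 3.68, 7.37, 3.73 and 3.69 CPM in S273A libraries. Ctla4, an inhibitory receptor that regulatory T cells carry, was at 3.32, 3.98, 2.60 and 0.939 CPM in WT libraries and 1.67, 3.94, 0.976 and 1.17 CPM in S273A libraries. Both were highest in WT replicate 2 and lowest in WT replicate 5. Over the 8 libraries Cd28 averaged 6.22 RPKM (CPM per kilobase of row length), against 1.56 for Icos and 1.2 for Ctla4, on the length-corrected scale. Log2 fold changes were 0.05 (SE 0.29) for Cd28, -0.25 (SE 0.33) for Icos and -0.48 (SE 0.50) for Ctla4.

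The other 3 receptors of this class had the T cell order in part. Pdcd1, which encodes the exhaustion receptor PD-1, was at 4.87, 4.78, 5.13 and 1.76 CPM in WT libraries and 2.9, 7.54, 1.67 and 2.22 CPM in S273A libraries. Lag3, an inhibitory receptor that binds MHC class II, was at 5.38 ± 1.94 CPM for WT against 4.47 ± 1.009 CPM for S273A (SD, n = 4 each), and Cd27, a receptor of the TNF family, at 8.19 ± 2.40 CPM for WT against 7.29 ± 1.69 CPM for S273A. Their log2 fold changes were -0.20, -0.26 and -0.17, each with a 95% confidence interval that spans 0 (-1.27 to 0.88, -0.89 to 0.36 and -0.69 to 0.36).

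The regulatory class could be read only in part. The row listed as Foxp3, the transcription factor that defines regulatory T cells, was at 41.4, 45.2, 44.1 and 42.0 CPM in WT libraries and 42.4, 44.99, 45.1 and 45.5 CPM in S273A libraries. These 8 values span 1.09-fold within WT and 1.07-fold within S273A, while Cd3e spanned 2.43-fold and 1.87-fold. The row has 9373 bases of features, where GENCODE M21 gives Foxp3 (chrX:7573644-7595245, plus strand) 4577 exonic bases. It was the 1 member whose row exceeded its annotated exons by more than 1.2 times. Ppp1r3f and Ccdc22, on the other strand, share 266 and 590 exon bases with Foxp3, and neither symbol has a row of its own. The libraries do not record strand. The row is therefore not read here as the level of Foxp3, and its log2 fold change of 0.04 (95% confidence interval -0.07 to 0.16) says little about regulatory T cells.

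The ratio of the Foxp3 row to Cd3e, chosen as a measure of regulatory cells per T cell, carries the same limit. It was 3.11, 3.60, 3.83 and 7.65 in WT and 5.62, 3.20, 5.93 and 5.19 in S273A. It was highest where Cd3e was lowest, in WT replicate 5. The difference of mean log2 ratios was 0.19 (exact two-sided permutation p 0.543, adjusted 0.857 over 3 ratios), and 0.47 without WT replicate 5 (exact p 0.171).

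Ikzf2, which encodes the factor Helios of most thymic regulatory T cells and some other lymphocytes, was at 40.5, 39.7, 30.2 and 24.5 CPM in WT libraries and 31.6, 38.8, 26.2 and 25.1 CPM in S273A libraries. It had the T cell order at a smaller range, 1.66-fold within WT. Il2ra, the high-affinity interleukin-2 receptor chain CD25 of regulatory T cells and ILC2, was at 5.87, 6.14, 8.21 and 6.81 CPM in WT libraries and 7.08, 6.07, 6.66 and 4.43 CPM in S273A libraries. Its highest library was WT replicate 3 and its lowest S273A replicate 6, so it did not have the T cell order. Log2 fold changes were -0.15 (SE 0.18) and -0.15 (SE 0.17). Of 15 further regulatory T cell genes listed beside the members, 13 were tested, 7 with estimates below 0 and 6 above, a median of -0.04 and none called. The smallest p-values among them belonged to the cytokine gene Il10 (2.04 ± 0.765 CPM for WT against 1.49 ± 0.300 CPM for S273A; log2 fold change -0.46), the receptor gene Tnfrsf4, known as OX40 (2.92 ± 0.869 CPM for WT against 2.39 ± 0.555 CPM for S273A; -0.29), and Lrrc32, which holds latent TGF-beta on the cell surface (57.5 ± 2.92 CPM for WT against 62.5 ± 10.9 CPM for S273A; 0.12). None of the 3 passed, and which cells the Lrrc32 reads came from was not tested.

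The cytotoxic class held genes with the T cell order and genes with another order. Gzmk, a granzyme of CD8 effector memory cells, had the estimate furthest from 0 of all members. It was at 4.33, 3.47, 3.15 and 0.881 CPM in WT libraries and 1.51, 3.26, 0.460 and 0.923 CPM in S273A libraries, from counts of 73, 61, 46 and 15 in WT and 27, 58, 8 and 15 in S273A. Of the S273A libraries, only replicate 3 reached the level of the 3 high WT libraries, and WT replicate 5 lay among the low S273A ones. The estimate on the log2 scale was -0.93 (SE 0.57, 95% confidence interval -2.20 to 0.34; edgeR's p before adjustment 0.134, adjusted p 0.9999). Eomes, a T-box factor of memory CD8 and NK cells, was at 7.71, 10.1, 8.41 and 2 CPM in WT libraries and 5.52, 8.04, 2.18 and 2.89 CPM in S273A libraries, with a log2 fold change of -0.59 (SE 0.49). Both genes thus had 3 WT libraries and S273A replicate 3 at the top.

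Nkg7, a granule protein of killer cells, was at 13.4, 14.6, 12.1 and 4.29 CPM in WT libraries and 8.97, 14.3, 5.51 and 6.03 CPM in S273A libraries. Prf1, the pore-forming perforin, was at 5.40, 5.91, 4.45 and 1.41 CPM in WT libraries and 4.40, 5.51, 2.47 and 2.77 CPM in S273A libraries. Gzmb, the granzyme that triggers apoptosis through caspases, was at 2.08, 2.27, 1.03 and 0.939 CPM in WT libraries and 1.39, 2.36, 0.747 and 1.17 CPM in S273A libraries. WT replicate 5 or S273A replicate 4 was lowest for each of the 3, and their log2 fold changes were -0.35, -0.18 and -0.16. Tbx21, the factor T-bet of type 1 lymphocytes, was at 6.73 ± 3.07 CPM for WT against 5.64 ± 1.56 CPM for S273A (SD, n = 4 each; log2 fold change -0.25), and Il2rb, the receptor chain shared by interleukins 2 and 15, at 38.5 ± 12.9 CPM for WT against 35.8 ± 12.7 CPM for S273A (-0.10). Ifng, the interferon made by these cells, gave only 2 to 17 counts per library, 15, 15, 16 and 6 in WT and 13, 17, 9 and 2 in S273A, and its log2 fold change of -0.42 has an SE of 0.49.

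Several genes of NK cells peaked elsewhere. Ncr1, the receptor NKp46 that marks NK cells and some other innate lymphoid cells (chr7:4337724-4345164, plus strand), was at 3.74, 5.97, 4.72 and 2.29 CPM in WT libraries and 7.53, 3.43, 2.53 and 2.65 CPM in S273A libraries. S273A replicate 2 held the highest level, WT replicate 5 the lowest, and the genotypes overlapped. Gzma, a granzyme abundant in NK cells, was at 2.91, 3.13, 2.26 and 1.47 CPM in WT libraries and 3.4, 1.80, 1.67 and 2.22 CPM in S273A libraries. Klrb1c, which encodes the NK1.1 antigen, was at 5.16, 6.14, 4.04 and 2.88 CPM in WT libraries and 6.80, 4.95, 4.02 and 2.95 CPM in S273A libraries. These 3 genes were highest in S273A replicate 2, where Cd3g was at its lowest. Cd4 and Cd28 were the other 2 members highest there. Klrd1 (CD94) and Klrk1 (NKG2D), lectin-like receptors encoded beside each other on chromosome 6 (from 129591782 and from 129610323), were at 4.03 ± 1.43 CPM for WT against 4.03 ± 1.37 CPM for S273A and at 11.2 ± 2.96 CPM for WT against 10.2 ± 2.9 CPM for S273A (SD, n = 4 each). In S273A replicate 2 they were at 5.18 and 13.0 CPM, in both cases the highest S273A level. S273A replicate 3 was close behind, at 5.06 and 12.3 CPM. Over all 8 libraries Klrd1 was highest in WT replicate 2 and Klrk1 in WT replicate 1. Klrb1c belongs to a family of similar genes, so its short reads may be shared with relatives.

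Log2 fold changes of the NK genes were -0.05 (SE 0.39, 95% confidence interval -0.93 to 0.83) for Ncr1, -0.10 for Gzma, 0.04 for Klrb1c, -0.00045 for Klrd1 and -0.13 for Klrk1. Without S273A replicate 2 the cytotoxic median was -0.27. The ratio of Ncr1 to Cd3e counts was 0.283, 0.478, 0.412 and 0.422 in WT and 1.0, 0.246, 0.336 and 0.305 in S273A. S273A replicate 2 alone held as many Ncr1 as Cd3e counts, and the other 3 S273A libraries lay below 3 of the 4 WT libraries. The difference of mean log2 ratios was 0.02 (exact two-sided permutation p 1, adjusted p 1 over 3 ratios). It was -0.42 without S273A replicate 2 (exact p 0.171) and -0.13 without WT replicate 1 (exact p 0.8).

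**Figure D4:**
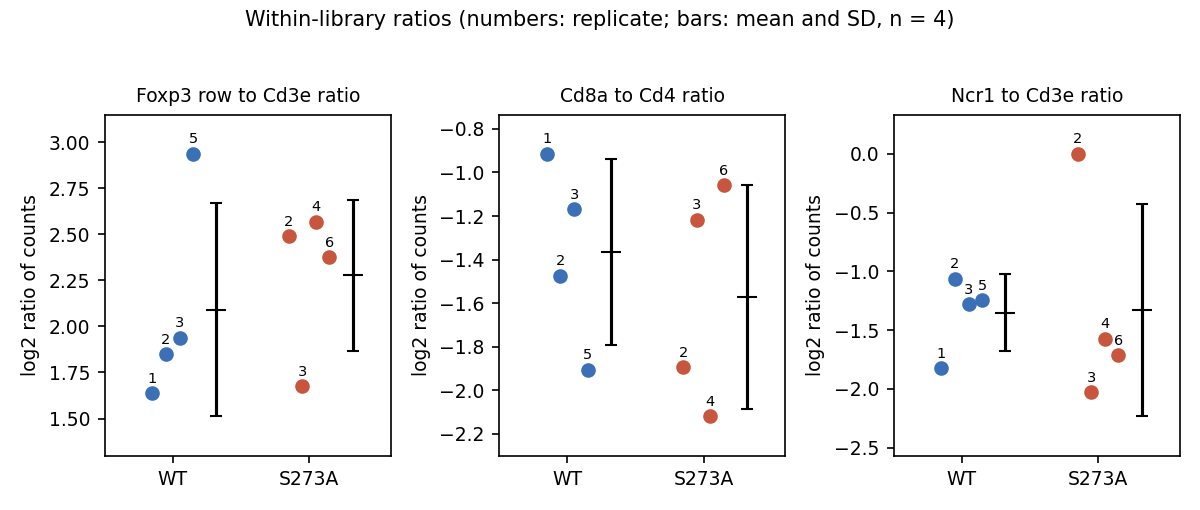
Log2 ratio of counts within each library (y axes) for the Foxp3 row to Cd3e, Cd8a to Cd4 and Ncr1 to Cd3e, in WT (blue) and S273A (red), with replicate numbers and with mean and SD as black bars. S273A replicate 2 stands alone at a log2 ratio of 0 for Ncr1 to Cd3e, and WT and S273A overlap in all 3 plots.

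Of 25 further cytotoxic and NK genes listed beside the members, 23 were tested, 19 with estimates below 0, a median of -0.15 and none called. The smallest p-values belonged to Fasl, the death ligand of killer cells (2.53 ± 0.565 CPM for WT against 1.59 ± 0.710 CPM for S273A; log2 fold change -0.67, edgeR's p before adjustment 0.0561, adjusted p 0.9999), the protease gene Ctsw (12.9 ± 2.62 CPM for WT against 10.8 ± 1.98 CPM for S273A; -0.25) and the chemokine receptor gene Cxcr3 (14.4 ± 4.65 CPM for WT against 11.7 ± 3.54 CPM for S273A; -0.31). Of 25 further T cell genes, 24 were tested, 21 with estimates below 0, a median of -0.14 and none called. Cd40lg, the helper ligand for B cells, was at 1.52 ± 0.959 CPM for WT against 0.957 ± 0.363 CPM for S273A, the adaptor gene Fyb at 142 ± 17.2 CPM for WT against 129 ± 11.2 CPM for S273A, and Satb1, a chromatin organiser of T cells, at 17.3 ± 2.63 CPM for WT against 19.7 ± 3.71 CPM for S273A. Their log2 fold changes were -0.67, -0.14 and 0.18, and Satb1 was thus one of the 3 above 0. Fyb stood far above Cd3e in every library, and which cells its reads came from was not tested.

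The type 2 class held 3 genes at very different levels. Areg, the growth factor amphiregulin made by ILC2 and tissue regulatory T cells, had counts of 5, 1, 0 and 4 in WT and 2, 4, 3 and 5 in S273A. The 0 in WT replicate 3 allows up to 0.205 CPM, from 3 counts. The gene was not tested, and no direction is read from it. Gata3, the factor that drives type 2 lymphocytes, was at 4.57, 3.64, 2.46 and 2.47 CPM in WT libraries and 2.73, 4.10, 2.18 and 3.63 CPM in S273A libraries, with a log2 fold change of -0.06 (SE 0.26). Its 3 highest libraries were those of the T cell order. Of the type 2 cytokines, Il5 had 4 to 9 counts per library and Il13 2 to 4, and the neuromedin receptor gene Nmur1 had 0 to 3. Other genes of type 2 lymphocytes were well detected, such as Rora, a factor they share with other cells, at 135 ± 15.2 CPM for WT against 132 ± 12.9 CPM for S273A. These 4 genes were named after their values were seen.

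Il1rl1, the receptor for interleukin-33 on ILC2, tissue regulatory T cells and mast cells (chr1:40429570-40465415, plus strand), was at 34.5, 42.3, 25.2 and 33.3 CPM in WT libraries and 19.7, 30.3, 35.6 and 25.6 CPM in S273A libraries. WT replicate 2 was highest and S273A replicate 2 lowest. The estimate on the log2 scale was -0.29 (SE 0.19, 95% confidence interval -0.71 to 0.14; edgeR's p before adjustment 0.169, adjusted p 0.9999). The 10 mast cell and basophil markers summed to 206, 324, 175 and 242 CPM in WT and 145, 223, 252 and 213 CPM in S273A, and all 10 had counts. Their highest and lowest libraries were the same as those of Il1rl1. Among them Cpa3, a mast cell protease, was at 39.3, 66.5, 31.1 and 48.5 CPM in WT libraries and 22.2, 42.3, 46.1 and 35.7 CPM in S273A libraries. The part of mast cells in the Il1rl1 values was not tested. Of 19 further type 2 genes, 14 were tested, 7 with estimates on each side of 0, a median of -0.01 and none called. Those with the smallest p were Il17rb, the receptor for interleukin-25 (5 ± 0.706 CPM for WT against 5.55 ± 0.456 CPM for S273A; log2 fold change 0.15), Il4ra (131 ± 9.33 CPM for WT against 137 ± 11 CPM for S273A; 0.07) and Il9r (3.96 ± 0.982 CPM for WT against 3.27 ± 1.22 CPM for S273A; -0.28).

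Il7r and Tcf7 mark naive and memory T cells and innate lymphoid cells. Il7r, the interleukin-7 receptor, was at 123, 159, 96.9 and 102 CPM in WT libraries and 125, 121, 121 and 109.6 CPM in S273A libraries. It had the highest length-corrected level of all members, 28.5 RPKM, with a range of only 1.14-fold within S273A. Its lowest library stood above the highest library of every other member on that scale. Il2rb followed at 13.8 and Nkg7 at 12.2, with Cd2 at 7.04, Cd3e at 7.02 and Lck at 6.95 close together. The lowest levels on that scale were those of Areg at 0.145, Ifng at 0.569, Gata3 at 1.00 and Gzmb at 1.06. The 8 libraries of Cd2, Cd3e and Lck overlapped, as did those of Gata3 and Gzmb, so neighbours in this order do not differ beyond their spread. Tcf7, the factor TCF-1, was at 14.1, 12.7, 9.44 and 5.58 CPM in WT libraries and 8.75, 15.9, 8.67 and 9.11 CPM in S273A libraries and had the T cell order. Log2 fold changes were -0.02 (SE 0.14) for Il7r and 0.02 (SE 0.29) for Tcf7.

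Class levels per library put these orders side by side. A class level is the mean over its tested genes of log2 CPM minus each gene's own mean. For the receptor complex and T cell surface it was 0.59, 0.48, 0.10 and -0.71 in WT and -0.47, 0.61, -0.45 and -0.15 in S273A. For the cytotoxic class it was 0.49, 0.60, 0.20 and -0.80 in WT and 0.24, 0.41, -0.62 and -0.52 in S273A. S273A replicate 2 was low in the first and above the mean in the second. The regulatory class, with the Foxp3 row in it, ran only from -0.26 to 0.11, and the type 2 class from -0.40 to 0.36. The S273A mean minus the WT mean was -0.23, -0.24, -0.09 and -0.17 for these 4 classes. Each was within the spread of libraries inside a genotype (pooled SD 0.55, 0.58, 0.13 and 0.29).

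**Figure D5:**
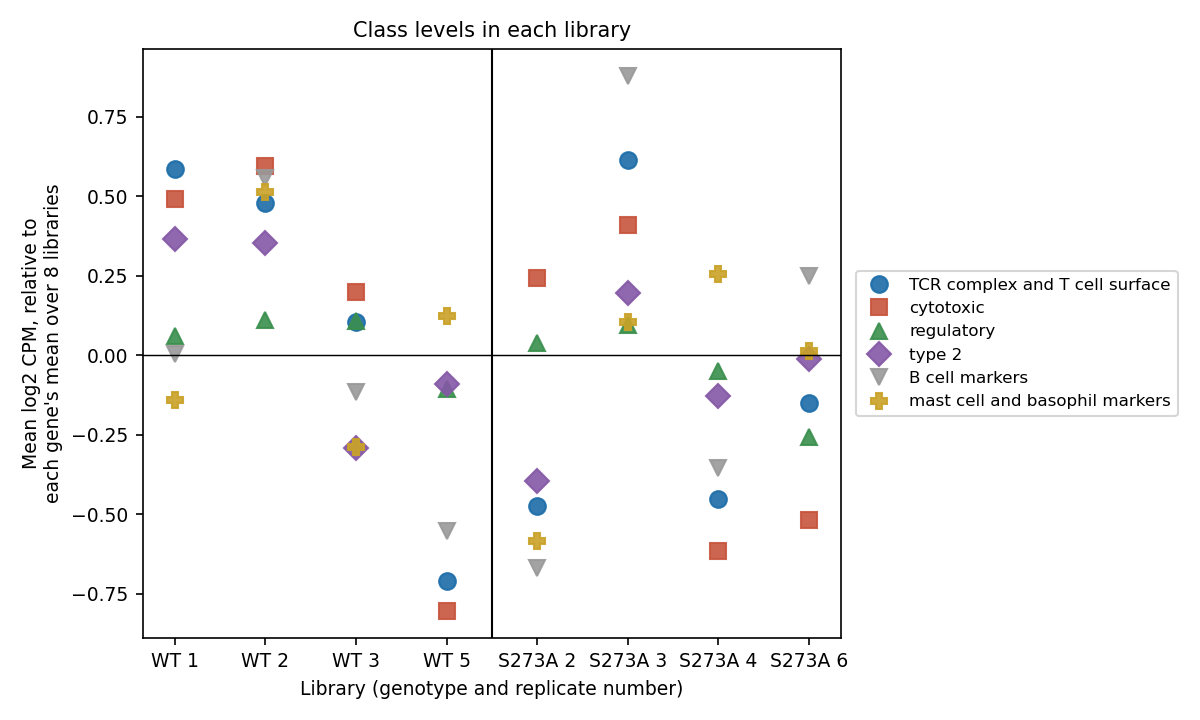
Class level in each library (y axis, mean log2 CPM relative to each gene's mean over 8 libraries) for 4 member classes and for B cell and mast cell markers. T cell and cytotoxic levels are lowest in WT replicate 5, at -0.71 and -0.80, and they part in S273A replicate 2, at -0.47 and 0.24.

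Markers of other cells moved with some of these libraries. The 11 B cell markers with a row, all of them with counts, summed to 336, 489, 374 and 173 CPM in WT and 201, 488, 193 and 283 CPM in S273A. They were highest in WT replicate 2 and S273A replicate 3 and lowest in WT replicate 5, as were many T cell genes. The 10 adipocyte markers were lowest in the same high libraries, at 6590 CPM in WT replicate 2 and 7681 CPM in S273A replicate 3, against 8499 to 10125 CPM in the other 6. Over all 15667 tested rows, deviations from the genotype mean in log2 CPM had a Pearson correlation of 0.47 between WT replicate 2 and S273A replicate 3, and of 0.31 between WT replicate 5 and S273A replicate 4. Rows are not independent, and these are descriptions. Of the 14 macrophage markers, Lpl, which adipocytes also express, was at 2913 to 4158 CPM. The other 13 summed to 5284, 6269, 5232 and 5623 CPM in WT and 5119.6, 5659, 4891 and 5569 CPM in S273A, highest in WT replicate 2, with overlap between genotypes; Lpl was set apart after the values were seen. Dendritic cell markers summed to 274 to 369 CPM in WT and 253 to 313 CPM in S273A, progenitor and fibroblast markers to 8490.4 to 9827 and 7735 to 9896, and lymph node stroma markers to 234 to 300.2 and 209 to 329. Most of the lymph node stroma sum was Enpp2, at 173 to 279 CPM over the libraries. Ccl19 had only 0 to 2 counts per library, Glycam1 0 to 5 and Madcam1 0 to 3. That sum is therefore not read as a level of lymph node stroma, and these genes were named after their values were seen. Neutrophil markers summed to 33.6 to 37.7 CPM in WT and 25.8 to 67.1 CPM in S273A. The highest sum was that of S273A replicate 6 alone. Ngp had 134 counts there against 0 to 6 in the other libraries, and S100a9 114 against 2 to 7. Ngp and S100a9 were named after their values were seen. The part of these shared features in the member values was not tested.

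Of 24 cytokine, chemokine and ligand genes that act on these lymphocytes, 16 were tested, 11 with estimates below 0 and none called. The smallest p belonged to Il33, the alarmin for Il1rl1-bearing cells. It was at 13.7, 14.3, 11.7 and 13.0 CPM in WT libraries and 13.8, 17.2, 17.6 and 14.8 CPM in S273A libraries, a log2 fold change of 0.26 (SE 0.10; edgeR's p before adjustment 0.0279, adjusted p 0.9999), which did not pass. Its highest library was S273A replicate 4 and its lowest WT replicate 3. Mesothelial markers, all 10 with counts, had the same extremes, with sums of 158 to 262 CPM in WT and 225 to 311 CPM in S273A; their part in the Il33 values was not tested. Il7, a survival cytokine of T cells, was at 5.59 ± 1.12 CPM for WT against 6.36 ± 0.380 CPM for S273A (log2 fold change 0.19), and Ccl22, a chemokine for regulatory T cells, at 4.84 ± 1.43 CPM for WT against 4.14 ± 0.917 CPM for S273A (-0.22).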

How the data were processed

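RNA from 8 epididymal fat samples, 4 WT and 4 S273A, was sequenced. Per the labels' protocols, 400 ng of RNA was depleted of ribosomal RNA, turned into cDNA that does not record strand, made into libraries with Nextera XT over 12 amplification cycles and read as 36-base pairs. The submitters' processing notes list HISAT2 2.0.5, featureCounts 1.5.2, Picard 2.9.2, bcl2fastq 2.20.0 and edgeR 3.3.0, with the build mm10. Neither the annotation version nor the handling of duplicate and multi-mapped reads is stated there. The deposited data are raw read counts for each gene row in 1 table, beside the row's length in bases. No count column was left unmapped (0).

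Groups came from the sample labels. Rows were filtered with filterByExpr (minimum count 10, minimum total 15), scaled by TMM and tested with edgeR 4.0.16 in R 4.3.3 by the quasi-likelihood test, S273A against WT, with Benjamini-Hochberg adjustment over all tested rows and a threshold of 0.05. The code was tested on simulated data. CPM use the TMM-scaled library size, and RPKM divide CPM by the deposited row length. Ratios are log2 of counts plus 0.5, with exact permutation tests over libraries. Class levels use log2 CPM with a prior count of 2. Total counts of 14880239 to 18194889 put 3 counts at 0.167 to 0.205 CPM; such limits cover counting error only.

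Alternatives were DESeq2 1.42.0, limma-voom (limma 3.58.1), RLE scaling, no scaling factor, no filter, the replicate number as a block, each library left out, and counts plus 2 in the ratios. All 39 members are named, with up to 3 genes of smallest p from each of the lists of related genes, and summed CPM for other cell types. The 14 lists (200 genes) and the members were chosen with earlier results of these data known. Genes outside that rule are said to be so where named. Promoter sequences are from RefSeq (GRCm38.p6), and gene positions from GENCODE M21 (GRCm38), the same assembly as mm10. Overlapping genes and similar families (granzymes, Klr receptors) may share reads: 10 members share exon bases with another gene, 6 of them with a gene on the other strand.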

Additional observations from a re-analysis of the deposited data

Results flagged for a closer look

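Within each group of 4 libraries, the gap between an extreme library and its nearest neighbour was set against the group's range. Over 84 such groups, 7 held a library past the 95% limit of Dixon's test, and chance gives about 1 in 20. The groups draw on the same 8 libraries and many members vary together, so 7 of 84 is not read as an excess over chance. S273A replicate 3 stood above the other S273A libraries in 4 genes: Cd2 at 10.5 CPM against 6.95 for the nearest, Icos at 7.37 against 3.73, Lag3 at 5.96 against 4.18 and Tcf7 at 15.9 against 9.11. WT replicate 5 stood below the other WT libraries in Zap70, at 4.58 CPM against 10.8, and in Pdcd1, at 1.76 against 4.78. The Foxp3 row was at 42.4 CPM in S273A replicate 2 against 44.99 for the nearest.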

How the results depend on the processing

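No member was called under any of the 14 alternatives, where the smallest adjusted p was 0.999. Of 532 member fold changes under these alternatives, 471 kept their direction and 61, in 19 members, changed sign. Members with an unadjusted p under 0.05 numbered 4 of 38 (10.5%) without WT replicate 5, where 1.65% of all rows did so, 4 of 38 (10.5%) without S273A replicate 3, against 2.26%, and 1 of 38 (2.6%) without S273A replicate 4, against 1.32%. They numbered 0 under every other alternative. WT replicate 5 was the lowest library in 23 of 39 members, and S273A replicate 3 the highest in 9. Leaving out either one lowers the estimates of such members together, so these shares are not read as a genotype difference. Over all rows, 1 row was called by DESeq2 and 1 by edgeR without S273A replicate 4, against 0 in the other fits; it was Gdf3, no member, both times, and the cause was not tested. Leaving out 1 library at a time moved the log2 difference of the Ncr1 to Cd3e ratio from -0.42 to 0.26. Replicate numbers 2 and 3 occur in both genotypes, but the labels give them no meaning, so they were not taken as pairs. Deviations of same-numbered libraries had correlations of -0.08 and -0.22, inside the range of -0.43 to 0.47 of differently numbered ones. These correlations cannot show whether same-numbered libraries are related. With the replicate block 0 rows and 0 members were called, 27 of 38 estimates were below 0, and the medians were -0.06 over all members, -0.06 for cytotoxic, -0.03 for regulatory, -0.13 for type 2 and -0.22 for receptor genes. Over the shared numbers alone, in a mean paired difference without a test, the log2 ratios differed by 0.19 (Foxp3 row to Cd3e), -0.23 (Cd8a to Cd4) and 0.16 (Ncr1 to Cd3e). Replicates 2 and 3 went opposite ways in the first and last of these. From WT to S273A, the Foxp3 row to Cd3e ratio went from 3.60 to 5.62 in replicate 2 and from 3.83 to 3.20 in replicate 3. Ncr1 to Cd3e went from 0.478 to 1.0 and from 0.412 to 0.246. Depth limits Areg, at 0 to 5 counts per library, and Ifng, at 2 to 17.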
